A study of Mus musculus with 40 samples.

Results

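Primary cilium and intraflagellar transport genes were followed in the forebrain of mouse embryos that carry an added copy of Chd8. The set is a list of 51 gene symbols for the transport trains, motors, gate and membrane traffic of the cilium. Each symbol was matched to its NCBI gene ID, and all 51 were found among the 17940 genes listed at E14.5 (E for embryonic day) and the 15449 listed at E18.5. All 51 had an adjusted p at both stages, so none was lost to a filter on low values. The libraries were made from polyadenylated RNA of the forebrain of male embryos. At each stage 5 wild-type (WT) libraries stood against 5 libraries of the genotype labelled Chd8 KI, which the study's title describes as a duplication of Chd8. The labels used here give neither the strain, nor the zygosity or insertion site of the added copy, nor how the 5 embryos or pools of a group relate by litter; p-values therefore measure the spread between these libraries, which may be partly technical. CHD8 ChIP-seq and ATAC-seq libraries made at E14.5 were not analysed here.

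The primary cilium is a single antenna-like projection of the cell surface, carried in the developing forebrain by radial glia and by young neurons. Proteins enter and leave it on intraflagellar transport (IFT) trains. IFT-B trains with kinesin-2 carry cargo to the tip, IFT-A trains with dynein-2 carry it back, and the BBSome takes membrane receptors out. A transition zone at the base acts as a gate. Hedgehog signalling in vertebrates runs through the cilium, where the processing of Gli transcription factors depends on IFT, and inherited defects of these genes cause ciliopathies such as Joubert, Meckel and Bardet-Biedl syndromes, many with brain malformations.

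The values are those of the authors' own DESeq2 comparison at each stage, with no value per library. A log2 fold change above 0 is read as higher in KI, because Chd8 itself was positive according to the authors' deposited table at E14.5 (0.64, SE 0.031, adjusted p = 1.49e-88) and at E18.5 (0.51, SE 0.038, adjusted p = 1.34e-37). For that reason Chd8 is no independent check of the labels. The mean normalized count of a gene according to the authors' deposited table is a mean over the libraries of both genotypes at that stage, and ranged over the 51 genes from 27.8 (Kif17) to 4372 (Kif3a) at E14.5. At E18.5 it ranged from 85.9 (Bbs10) to 6603 (Kif3a) according to the authors' deposited table. These counts depend on transcript length and were normalized separately by stage, so they show how precisely each gene was measured and are compared neither between genes nor between stages. In whole tissue, fewer cells of a type and less RNA per cell cannot be told apart.

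Cilium genes differed little between KI and WT forebrain. At E14.5, 1 of the 51 passed an adjusted p of 0.05 over all genes, and it was lower in KI. Over all 13417 genes tested 1.21 percent passed, 0.47 percent as lower and 0.738 percent as higher in KI, so 1 of 51 is near that background. At E18.5 none of the 51 passed by the authors' DESeq2 test in either direction, where 0.0662 percent of 13601 genes did, 0.0221 percent as lower and 0.0441 percent as higher. At an unadjusted p under 0.05 there were 4 cilium genes at E14.5, all lower in KI (7.84 percent of the 51, against 11.5 percent of all genes in both directions and 5.28 percent as lower). There were 2 at E18.5, again both lower (3.92 percent, against 5.96 percent in both directions and 2.82 percent as lower). The median log2 fold change was −0.01 at E14.5 and −0.03 at E18.5, beside −0.00 and −0.00 over all genes tested. Above 0 stood 21 of the 51 at E14.5 (41.2 percent, against 49.8 percent of all genes tested) and 13 of 51 at E18.5 (25.5 percent, against 48.8 percent).

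How tightly these data bound a change can be read from the 95% interval of each log2 fold change, computed from its deposited SE. For 47 of the 51 genes at E14.5 and 43 of 51 at E18.5 the whole interval excluded a rise of 25% and a reduction by the same factor. Over all genes tested the same held for 74.3% and 74.8%. With a bound of 50% in place of 25% the same held for 49 of 51 genes at E14.5 and all 51 at E18.5. The exceptions at E14.5 were Wdpcp, whose interval was below 0, and Kif17, whose interval spanned 0 and whose SE of 0.289 according to the authors' deposited table was the highest of the set.

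**Figure D1:**
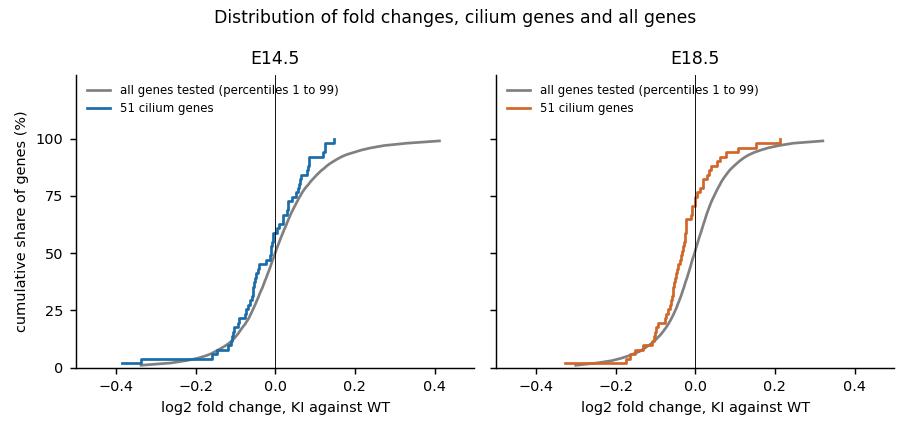
Cumulative share of genes (y axis, percent) against the log2 fold change of KI against WT (x axis) at E14.5 (left) and E18.5 (right); the coloured steps are the 51 cilium genes and the grey line gives percentiles 1 to 99 of all genes tested. The medians of the cilium genes are −0.01 and −0.03, and the lowest step at each stage is Wdpcp, at −0.38 and −0.33.

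The planar polarity effectors held the 1 cilium gene that passed. Wdpcp, Intu and Fuz form the CPLANE module, which recruits IFT-A proteins to the ciliary base and was first known from planar cell polarity in Drosophila. Wdpcp (NCBI gene ID 216560, chromosome 11, 21571969 to 21898687 in GRCm38) fell at E14.5, with a log2 fold change of −0.38 according to the authors' deposited table (SE 0.109, adjusted p = 0.0399, mean normalized count 171). Its level thus fell by 23.4%, with a 95% interval from −34.0% to −11.1%. At E18.5 Wdpcp stood at −0.33 according to the authors' deposited table (SE 0.106, unadjusted p = 0.00209, adjusted p = 0.371, mean normalized count 191), a difference of −20.3% (95% interval −31.1% to −7.92%). Between stages the effect differed by 0.06, taken as E18.5 less E14.5 (95% interval −0.24 to 0.36, SE 0.153). Wdpcp was the 1 cilium gene with an unadjusted p under 0.05 at both stages; of 13106 genes tested at both stages, 197 had this in the same direction. Its call at E14.5 was narrow: the adjusted p became 0.402 with the Benjamini-Yekutieli adjustment, 0.0533 when every gene with a p-value was adjusted together and 0.347 with an empirical null, in which the Wald statistic is rescaled to its own spread over all genes. Its partners were on the other side of 0 at E14.5, Intu at 0.08 (SE 0.075, adjusted p = 0.745) and Fuz at 0.08 (SE 0.099, adjusted p = 0.822) according to the authors' deposited table. At E18.5 Intu was at 0.03 and Fuz at −0.06 according to the authors' deposited table (SE 0.0712 and 0.0995).

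The BBSome group had no gene that passed. The lowest of its 9 genes at E14.5 was Bbs5, the subunit that binds phosphoinositides, at −0.34 according to the authors' deposited table (SE 0.113, unadjusted p = 0.00291, adjusted p = 0.112, mean normalized count 158). Bbs5 (NCBI gene ID 72569) spans 69646848 to 69667571 of chromosome 2 in GRCm38. At E18.5 it was at −0.06 according to the authors' deposited table (SE 0.113), and the difference between stages was 0.27 (SE 0.160, 95% interval −0.04 to 0.59, adjusted p = 0.999). Bbs7, a subunit of the core that pairs with Bbs2, was the highest of all 51 at E14.5, at 0.15 according to the authors' deposited table (SE 0.075, adjusted p = 0.440), and stood at −0.06 at E18.5 (SE 0.085). Bbs2 was at −0.06 at E14.5 (SE 0.072, adjusted p = 0.811) and at −0.17 at E18.5 (SE 0.076, unadjusted p = 0.0229, adjusted p = 0.770) according to the authors' deposited table. Bbs1, the subunit bound by the GTPase Arl6, was at 0.02 and 0.00 according to the authors' deposited table (SE 0.051 and 0.056). The other 5, Bbs4, Bbs9, the chaperonin-like assembly genes Bbs10 and Bbs12, and Arl6 itself, lay between −0.07 and 0.04 at E14.5 and between −0.16 and 0.03 at E18.5 according to the authors' deposited table.

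IFT-B, the complex of the outward trains, also had no gene that passed, in 11 tested at each stage. Its median log2 fold change was −0.06 at E14.5, with 7 of 11 below 0, and −0.04 at E18.5, with 9 of 11 below 0. The lowest at E14.5 was Ift20, which also works at the Golgi, at −0.15 according to the authors' deposited table (SE 0.066, unadjusted p = 0.0282, adjusted p = 0.339); at E18.5 it was at 0.02 (SE 0.074). Ift88 and Ift52, core subunits without which cilia are not built in mice, were at 0.05 and 0.06 at E14.5 and at −0.02 and −0.06 at E18.5 according to the authors' deposited table (SE 0.083, 0.068, 0.082 and 0.075). Ift74, which with Ift81 forms the tubulin-binding pair, was at −0.11 at E14.5 (SE 0.073) and 0.11 at E18.5 (SE 0.081) according to the authors' deposited table. Its pair Ift81 was at −0.06 and −0.03 according to the authors' deposited table (SE 0.052 and 0.049). Ift172, a peripheral subunit, was at −0.06 and then −0.15 according to the authors' deposited table (SE 0.058 and 0.080, adjusted p = 0.771 and 0.877), and the small GTPase-like Ift22 at −0.09 and −0.11 (SE 0.066 and 0.070). The other 4 were Ift27, Ift46, Ift57 and Ift80, between −0.07 and 0.06 at E14.5 and between −0.07 and −0.02 at E18.5 according to the authors' deposited table. For all 11 the 95% interval stayed inside the 25% bound at both stages.

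IFT-A genes, of the return trains, lay between −0.08 and 0.12 at E14.5 according to the authors' deposited table, and none of the 5 passed at either stage. Ift140 and Wdr19, core subunits, were at −0.04 and −0.01 at E14.5 and at −0.06 and −0.10 at E18.5 according to the authors' deposited table (SE 0.049, 0.094, 0.046 and 0.065). Ttc21b was highest at E14.5, at 0.12 (SE 0.068, adjusted p = 0.503), and Wdr35 lowest, at −0.08 (SE 0.053, adjusted p = 0.620), according to the authors' deposited table. At E18.5 the highest was Ift43, at 0.15 according to the authors' deposited table (SE 0.129).

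Among the motors, the kinesin-2 pair Kif3a and Kif3b was measured most precisely. Kif3b stood at −0.11 at E14.5 according to the authors' deposited table (SE 0.043, unadjusted p = 0.0107, adjusted p = 0.218), a difference of −7.33% with a 95% interval from −12.6% to −1.75%. Kif3a was at −0.05 (SE 0.033, adjusted p = 0.560) according to the authors' deposited table. At E18.5 both were at −0.03 according to the authors' deposited table (SE 0.038 for each). Kif17, a homodimeric kinesin-2 of sensory and neuronal cilia, was at −0.16 and 0.21 according to the authors' deposited table, with SE of 0.289 and 0.161, at a mean normalized count of 27.8 at E14.5. The dynein-2 heavy chain Dync2h1 was at 0.03 and −0.08, and the light intermediate chain Dync2li1 at 0.09 and −0.04, according to the authors' deposited table (SE from 0.051 to 0.088).

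The 12 transition zone genes, whose proteins form the ciliary gate, had none that passed. At E14.5 they ran from −0.10 (B9d1) to 0.08 (Cc2d2a) according to the authors' deposited table, with a median of −0.01 and all 12 intervals inside the 25% bound. At E18.5 they ran from −0.13 (Cep290) to 0.06 (Tmem67) according to the authors' deposited table, with 10 of 12 below 0 and a median of −0.05. Cep290, which links the axoneme to the membrane at the gate, was at −0.01 (SE 0.083) and then −0.13 (SE 0.078, adjusted p = 0.949) according to the authors' deposited table. Rpgrip1l, a scaffold of the gate, was at −0.06 and 0.04 according to the authors' deposited table (SE 0.071 and 0.060). The 3 tectonic genes Tctn1, Tctn2 and Tctn3, the B9-domain genes Mks1 and B9d2, and the membrane protein genes Tmem216 and Tmem231 made up the rest, none of them with an unadjusted p under 0.05.

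Genes of ciliary membrane traffic that act on Hedgehog signalling likewise had none that passed in 6. At E14.5 they divided by sign. The GTPase gene Arl13b and the orphan receptor gene Gpr161, a brake on Hedgehog signalling, were at −0.12 and −0.11 according to the authors' deposited table (SE 0.063 and 0.060, adjusted p = 0.457 and 0.465). The phosphoinositide phosphatase gene Inpp5e and the tip kinesin gene Kif7 were at 0.13 and 0.13 according to the authors' deposited table (SE 0.067 and 0.077, adjusted p = 0.462 and 0.549). At E18.5 all 6 lay between −0.04 and 0.02 according to the authors' deposited table, Gpr161 at −0.00. Arl3, which releases lipid-modified cargo inside the cilium, was at −0.01 at both stages according to the authors' deposited table (SE 0.058 and 0.059), and Tulp3, the adaptor that brings receptors in with IFT-A, at −0.02 and −0.03.

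**Figure D2:**
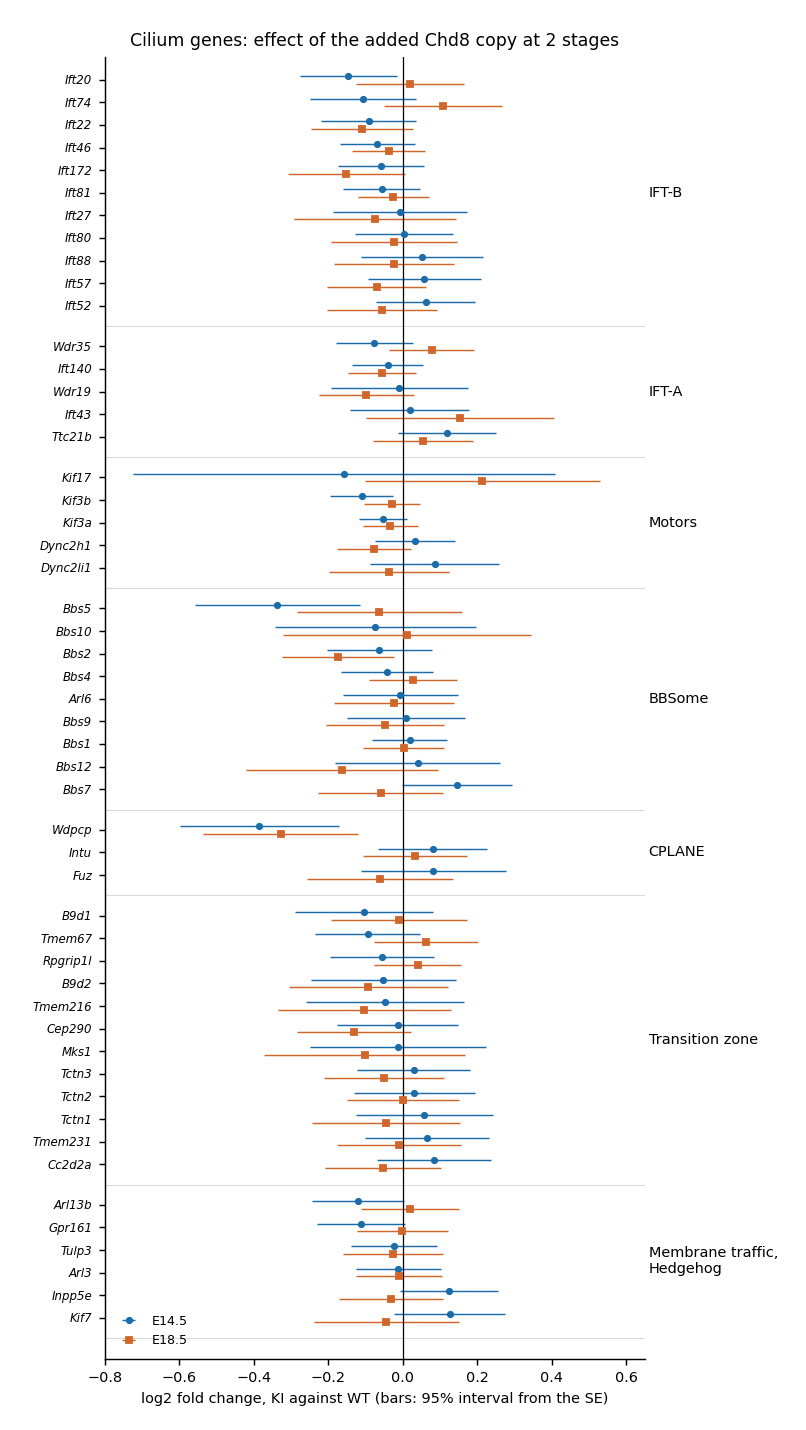
Log2 fold change of KI against WT (x axis) for each of the 51 cilium genes (rows, grouped by role and ordered by their value at E14.5); circles are E14.5, squares are E18.5 and bars are 95% intervals from the deposited SE. Nearly all bars cross 0; those of Wdpcp lie below 0 at both stages, and those of Bbs5, Ift20 and Kif3b at E14.5 and Bbs2 at E18.5 lie below 0 at 1 stage.

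Whether the added copy acted differently at the 2 stages was asked by testing the difference of the log2 fold changes directly, which is possible because the stages share no library. None of the 51 cilium genes passed (z test with Benjamini-Hochberg adjustment, lowest adjusted p = 0.999), and none of all 13106 genes did (0 percent, lowest adjusted p = 0.35). At an unadjusted p under 0.05 there was 1 cilium gene of 51 (against 4.52 percent of all genes), Ift74, at 0.21 higher at E18.5 (SE 0.109, 95% interval 0.00 to 0.43). For Wdr35 the difference was 0.15 (SE 0.079), for Bbs7 −0.21 (SE 0.114) and for Ift20 0.16 (SE 0.099). By sign, 21 of the 51 were below 0 at both stages, 4 were above 0 at both and 26 had opposite signs. Across the 51 genes Pearson's r between the stages was 0.13, and −0.17 without Wdpcp; over all 13106 genes it was 0.21. These correlations are across genes, which are not independent replicates, and genes of a stage share its libraries.

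**Figure D3:**
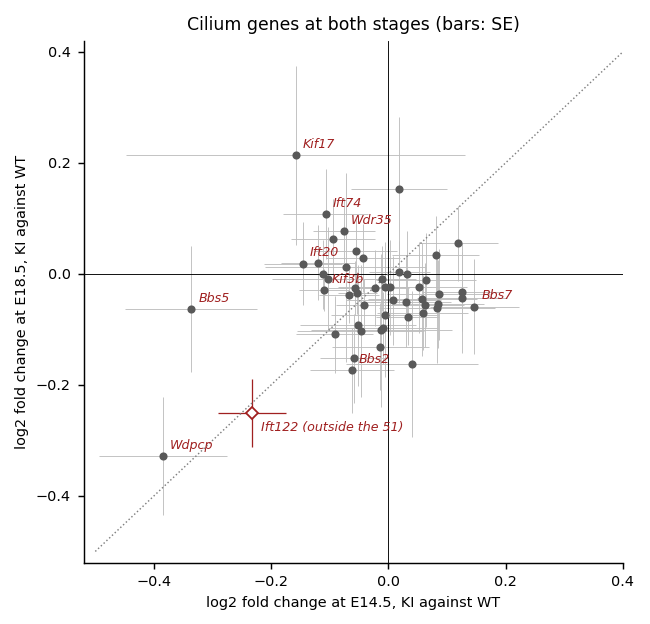
Log2 fold change of KI against WT at E14.5 (x axis) and at E18.5 (y axis) for the 51 cilium genes (grey points) and for Ift122, an IFT-A gene outside the 51 (open diamond); bars are the deposited SE and the dotted line marks equal values. Wdpcp (−0.38 and −0.33) and Ift122 (−0.23 and −0.25) lie near the dotted line below 0 at both stages, whereas Bbs5 (−0.34 and −0.06) does not.

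Promoter sequence was examined because many cilium genes of worms and vertebrates are controlled by RFX transcription factors, which bind a palindromic element called the X-box. RefSeq promoter windows of GRCm38.p6, from 250 bases before to 50 after an annotated transcript start, were matched by gene ID for 47 of the 51 genes, that is for all but Ift80, Ift81, Dync2li1 and Tmem67. The X-box half-site was searched on both strands as GTTGCC or GTTACC. It was present in 25 of the 47 (53.2%), against 20.8% of 27025 genes in the table and 20.7% of the 10444 of them tested at E14.5. Counted whether or not the other spelling was present, GTTGCC was in 22 of 47 (46.8%, against 14.1% of all). Counted in the same way, GTTACC was in 7 of 47 (14.9%, against 8.16%). Among transition zone genes 9 of 11 held a half-site, and in the membrane traffic group 1 of 6. A longer pattern, GTTGCC followed after 5 bases of any kind by CAAC, was found in none of the 47 and in 0.0851% of all genes. No other spacing and no mismatch was allowed, so this count cannot show whether a full X-box was present. Half-sites facing each other more closely than that pattern requires did occur. In Tctn1, GTTGCC lay at base 37 after the start and, on the opposite strand, at base 45. Tctn3 and Ift57 held GTTGCC facing GTTACC. B9d2 and Kif17 held GTTGCC facing GTTGCT, a spelling taken up below. How often such pairs occur among all genes was not tested. The ETS motif CCGGAAGT was in 5 of 47 (10.6%), against 4.31% of all genes and 8.88% of those tested at E14.5. A match is a description of letters and not a bound site.

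Responses were set beside the half-site without a test. At E14.5 the 25 genes with one had a median log2 fold change of −0.01 (range −0.34 to 0.15), and the 22 without one had −0.01 (range −0.38 to 0.13). At E18.5 the medians were −0.05 and −0.03.

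The windows of the called gene Wdpcp and of the next 4 genes by absolute Wald statistic at E14.5 are shown, 5′ to 3′ on the strand of the gene, so that the letters can be read beside the values above. Capitals mark X-box half-sites in any of 4 spellings, GTTGCC or GTTACC as above and also GTTGCT or GTTACT, which were added after the data were seen, and, in Ift20, the ETS motif on the opposite strand. With 4 spellings 33 of 47 cilium genes had a half-site (70.2%), against 39.2% of all genes. The annotated start of the transcript used is base 251 of each window; in Wdpcp and Bbs5 it lies inside the gene's outer bounds given above.
Wdpcp promoter, chr11:21572031-21572330, plus strand: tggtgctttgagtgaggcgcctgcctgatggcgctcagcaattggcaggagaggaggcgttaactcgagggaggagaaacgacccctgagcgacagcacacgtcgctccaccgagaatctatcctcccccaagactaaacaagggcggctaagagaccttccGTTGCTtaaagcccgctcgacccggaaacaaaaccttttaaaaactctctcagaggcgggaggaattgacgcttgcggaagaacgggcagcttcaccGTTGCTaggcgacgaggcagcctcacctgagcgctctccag
Bbs5 promoter, chr2:69646921-69647220, plus strand: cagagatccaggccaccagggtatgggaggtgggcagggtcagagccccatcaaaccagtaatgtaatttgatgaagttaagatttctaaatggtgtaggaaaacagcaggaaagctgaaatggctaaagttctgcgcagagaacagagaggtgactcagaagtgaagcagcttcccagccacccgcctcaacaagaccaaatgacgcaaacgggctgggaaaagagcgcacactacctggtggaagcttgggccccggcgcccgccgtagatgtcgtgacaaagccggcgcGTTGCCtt
Kif3b promoter, chr2:153291166-153291465, plus strand: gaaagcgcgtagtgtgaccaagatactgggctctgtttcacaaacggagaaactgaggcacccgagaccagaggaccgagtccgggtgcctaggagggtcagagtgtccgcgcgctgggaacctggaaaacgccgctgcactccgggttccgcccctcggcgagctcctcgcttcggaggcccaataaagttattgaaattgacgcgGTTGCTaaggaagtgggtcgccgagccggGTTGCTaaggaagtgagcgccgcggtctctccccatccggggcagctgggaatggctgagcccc
Ift20 promoter, chr11:78536111-78536410, plus strand: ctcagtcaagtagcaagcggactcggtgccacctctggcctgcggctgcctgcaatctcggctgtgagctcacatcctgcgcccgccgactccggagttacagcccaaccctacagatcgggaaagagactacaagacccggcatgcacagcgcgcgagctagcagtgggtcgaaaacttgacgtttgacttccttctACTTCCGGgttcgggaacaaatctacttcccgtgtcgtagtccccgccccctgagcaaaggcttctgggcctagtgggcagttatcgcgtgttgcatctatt
Bbs7 promoter, chr3:36613340-36613639, minus strand: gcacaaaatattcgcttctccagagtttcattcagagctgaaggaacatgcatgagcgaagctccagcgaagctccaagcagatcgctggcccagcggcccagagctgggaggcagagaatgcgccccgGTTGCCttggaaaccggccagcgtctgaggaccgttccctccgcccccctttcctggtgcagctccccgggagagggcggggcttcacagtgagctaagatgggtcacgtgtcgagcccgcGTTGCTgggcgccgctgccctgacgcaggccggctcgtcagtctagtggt
Wdpcp had no GTTGCC or GTTACC, but held GTTGCT 88 bases before the start and again at base 10 after it. Bbs5 had GTTGCC at base 43 after the start. Bbs7 had GTTGCC 121 bases before its start and GTTGCT at base 1 after it. Kif3b had GTTGCT 43 and 14 bases before its start. Wdpcp, Bbs5 and Kif3b were below 0 at E14.5 and Bbs7 above 0.

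**Figure D4:**
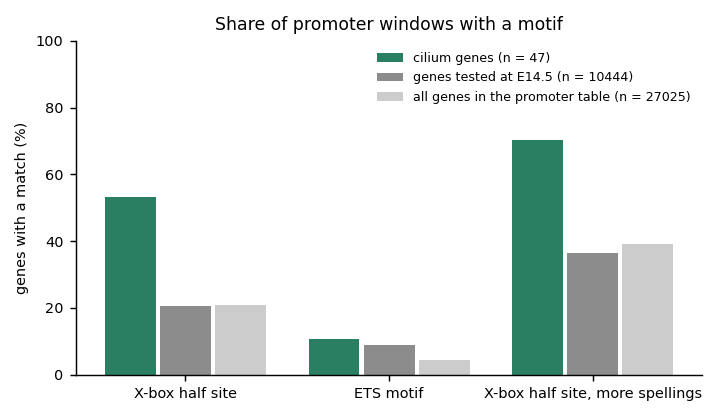
Share of genes (y axis, percent) whose promoter window holds an X-box half-site, an ETS motif, or a half-site in any of 4 spellings; bars stand for the 47 cilium genes with a window, the 10444 genes tested at E14.5 with a window and all 27025 genes of the promoter table. The half-site was in 53.2% of cilium genes and 20.8% of all genes.

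Of the 47 genes with a window, 12 have a gene on the opposite strand that starts within 1000 bp. Wdpcp starts 347 bp from Mdh1, the cytosolic malate dehydrogenase, with the genes pointing away from each other. Mdh1 was at −0.05 at E14.5 (SE 0.039, adjusted p = 0.686) and 0.04 at E18.5 (SE 0.037) according to the authors' deposited table. Ift20 starts 101 bp from Tnfaip1, at −0.02 and −0.01 according to the authors' deposited table (SE 0.043 and 0.045). Rpgrip1l starts 303 bp from Fto, at −0.05 and −0.01 according to the authors' deposited table (SE 0.045 and 0.033). The gene bodies of 13 of the 51 overlap another listed gene, among them Fuz with Ap2a1, Gpr161 with Tiprl and Kif7 with Ticrr; the strand setting of the counting is not given in the sources used here, so reads in such overlaps cannot be assigned with certainty. Wdpcp, Bbs5, Kif3b and Ift20 were not among these 13. The 51 genes lie on 17 chromosomes, and 1 of them, Ift88, is on chromosome 14 with the Chd8 gene of the reference genome. The insertion site of the added copy is not given in the labels used here, so nearness to it was not tested.

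Other genes of the pathway were read from lists of general knowledge, chosen with earlier results of these data known. Shares called within these lists are therefore descriptions and no independent support. Of 12 further IFT and BBS genes tested, 1 fell and none rose at E14.5 (8.33%, against 1.21 percent of all genes), with a median of −0.04 and 4 above 0. That gene was Ift122, the remaining core subunit of IFT-A (chromosome 6, 115853379 to 115926699), at −0.23 according to the authors' deposited table (SE 0.058, adjusted p = 0.0102, mean normalized count 663), so that its level fell by 14.9%. At E18.5 Ift122 was at −0.25 according to the authors' deposited table (SE 0.061, adjusted p = 0.0520), just outside the threshold, and no gene of the list passed, with 1 of 12 at an unadjusted p under 0.05. The difference between stages was −0.02 (SE 0.084, 95% interval −0.18 to 0.15). Its call at E14.5 was lost with the empirical null (adjusted p = 0.166) and with the Benjamini-Yekutieli adjustment (0.103), whereas at E18.5 that null gave an adjusted p of 0.0205. At E14.5, 2 of the 12 had an unadjusted p under 0.05, against 11.5 percent of all genes. Besides Ift122 this was Ttc30b, the lowest of the list, at −0.31 according to the authors' deposited table (SE 0.128, unadjusted p = 0.0163, adjusted p = 0.268). At E18.5 Ttc30b was at 0.03 according to the authors' deposited table (SE 0.085). Of 23 other transition zone and basal body genes none passed at either stage. Above 0 stood 11 and then 10, with medians of −0.00 and −0.015. At an unadjusted p under 0.05 there were 1 at E14.5 and 0 at E18.5, against 11.5 and 5.96 percent of all genes.

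Hedgehog pathway genes were all 13 above 0 at E14.5, as were 49.8 percent of all genes tested, with a median log2 fold change of 0.08. None passed over all genes, and 3 of 13 had an unadjusted p under 0.05, against 11.5 percent of all genes. Shh, the ligand, was at 0.35 according to the authors' deposited table (SE 0.172, unadjusted p = 0.0412, adjusted p = 0.405, mean normalized count 76.0). Ptch1, the receptor and a target of the pathway, was at 0.18 (SE 0.074, unadjusted p = 0.0164, adjusted p = 0.268) according to the authors' deposited table. Gli3 was the other of these 3, at 0.12 according to the authors' deposited table (SE 0.050, unadjusted p = 0.0202, adjusted p = 0.296). Gli1, the target most used as a readout, was at 0.16 according to the authors' deposited table (SE 0.137, adjusted p = 0.724), and Disp1, which releases the ligand, was lowest at 0.01 (SE 0.093). At E18.5, 6 of 13 were above 0 with a median of −0.01. None passed, and 1 of 13 had an unadjusted p under 0.05, against 5.96 percent of all genes. That gene was Shh, at 0.55 according to the authors' deposited table (SE 0.244, unadjusted p = 0.0241, adjusted p = 0.770), while Gli1 was at −0.02.

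Ciliary receptors and the ciliary cyclase had 4 genes tested at E14.5, of which 1 fell, where 0.47 percent of all genes fell. Mc4r, a melanocortin receptor that signals from neuronal cilia in the mouse hypothalamus, was at −0.38 according to the authors' deposited table (SE 0.103, adjusted p = 0.0260). At E18.5 it was at 0.09 according to the authors' deposited table (SE 0.103), a difference of 0.47 (SE 0.146, 95% interval 0.19 to 0.76) with an adjusted p of 0.689 over all genes. Adcy3, the adenylyl cyclase of neuronal cilia, was at −0.15 according to the authors' deposited table (SE 0.0775, adjusted p = 0.454), and Sstr3 at 0.06 (SE 0.125). None of the 6 receptor and cyclase genes tested at E18.5 passed, also at an unadjusted p under 0.05.

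Centriole duplication genes had 1 rise in 7 at E14.5, where 0.738 percent of all genes rose. It was that of Sass6, which builds the cartwheel of the new centriole, at 0.24 according to the authors' deposited table (SE 0.068, adjusted p = 0.0344); Plk4, the kinase that starts duplication, was at 0.10 (SE 0.062, adjusted p = 0.576). At E18.5 none of the 7 passed, also at an unadjusted p under 0.05, and Sass6 was at 0.06 according to the authors' deposited table (SE 0.107). None of 7 cilium disassembly genes passed at either stage, with 1 and then 0 at an unadjusted p under 0.05, medians of 0.08 and −0.09 and Aurka at 0.08 and −0.08 according to the authors' deposited table (SE 0.060 and 0.108). Over all genes 11.5 percent at E14.5 and 5.96 percent at E18.5 had an unadjusted p under 0.05. Of the 7 RFX and ciliogenic factor genes tested none passed, with 0 and then 1 at an unadjusted p under 0.05; Rfx3 was at 0.03 and 0.00 according to the authors' deposited table (SE 0.047 and 0.049), and Rfx4 at 0.13 and 0.04 (SE 0.088 and 0.101). The calls of Mc4r and Sass6 were lost with the empirical null (adjusted p = 0.272 and 0.313) and with the Benjamini-Yekutieli adjustment (0.263 and 0.347).

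**Figure D5:**
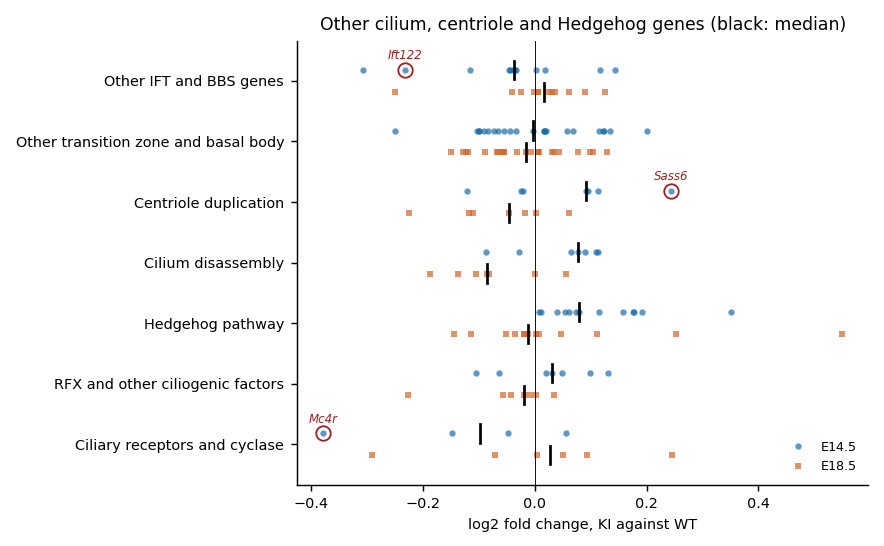
Log2 fold change of KI against WT (x axis) for single genes of 7 further lists (rows) at E14.5 (circles, upper) and E18.5 (squares, lower); black ticks are medians and red rings mark genes with an adjusted p under 0.05. The 13 Hedgehog genes at E14.5 all lie above 0 and none is ringed; the ringed genes are Ift122, Sass6 and Mc4r.

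Markers of the cells that carry cilia were read beside these values. The dorsal forebrain gene Emx1 was detected at both stages, with log2 fold changes of −0.05 and −0.10 according to the authors' deposited table (SE 0.0667 and 0.0738). Of 8 radial glia markers none passed at either stage, with medians of 0.04 and −0.07. At an unadjusted p under 0.05 there were 2 at E14.5 and 1 at E18.5, against 11.5 and 5.96 percent of all genes. According to the authors' deposited table the 2 were Hes1 and Sox2, at 0.23 and 0.16 (SE 0.079 and 0.060). The 1 at E18.5 was Fabp7, at −0.12 (SE 0.047). Below 0 stood 4 of the 8 at E14.5 and 6 at E18.5. Of 4 neuronal markers none passed, with medians of −0.03 and 0.03. Motile cilia genes of multiciliated cells, which share IFT and BBSome parts with primary cilia, were tested for 8 genes at the earlier stage and 12 at the later, none passing, with 0 and then 1 at an unadjusted p under 0.05 and medians of −0.04 and 0.00. Foxj1, their master regulator, was at −0.06 and −0.23 according to the authors' deposited table (SE 0.095 and 0.111, adjusted p = 0.859 and 0.808). Of 6 choroid plexus markers only Otx2 had an adjusted p, and it did not pass at either stage. Otx2 was at 0.16 and −0.04 according to the authors' deposited table (SE 0.136 and 0.547). Ttr had no adjusted p at either stage. At E14.5 it did have an unadjusted p, at a mean normalized count of 5.76 according to the authors' deposited table. At E18.5 Ttr, Folr1 and Clic6 had no unadjusted p either. The log2 fold change of Ttr at E18.5, 0.27, carried an SE of 1.876 at a mean normalized count of 2718 according to the authors' deposited table. Kcnj13, Folr1, Clic6 and Kl were at −0.69, −0.17, −0.14 and 0.02 at E18.5 according to the authors' deposited table (SE 0.933, 1.393, 1.148 and 0.438). The part of such cells in the values of the cilium genes was not tested.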

How the data were processed

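Reads had been processed before deposit; DESeq2 1.26.0, featureCounts 2.0.0, HISAT2 2.1.0, Trimmomatic 0.39 and the build mm10 are listed in the submitters' processing notes, and the strand setting and annotation are not given in the sources used here. Per the file headers, each of the 2 deposited tables (1 per stage) is a DESeq2 result: for every gene a signal (the mean normalized count), a log2 fold change and its SE, a score (the Wald statistic) and p-values, raw and adjusted. Deposited scores matched fold change over SE within 0.0001, and deposited adjusted p-values matched the Benjamini-Hochberg adjustment within 0.001, over the 13417 and 13601 genes that have one. The tables used here hold 0 columns of per-sample values, so depth per library is unknown, and the planned count model on values per library was replaced by the authors' Wald test.

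Symbols came from RefSeq GRCm38.p6, matching 17192 of 17940 and 15064 of 15449 IDs. A gene was called at a deposited adjusted p under 0.05, with no fold threshold. The stage difference was a two-sided z test, Benjamini-Hochberg adjusted over 13106 genes, tested on simulated data first. Named genes are called genes, the 6 highest and 6 lowest Wald statistics per stage, the first 2 of each role group, and in other lists the called, first 2, highest and lowest; head-to-head neighbours of named genes were added. Cilium genes outside this rule that are given values of their own (Ift81, Fuz, Dync2li1 and Tulp3), and the genes named as ends of a range, were added after their values were seen. So were Ttc30b, Gli3, Kcnj13, Clic6 and Kl of the other lists. The cilium genes and lists were chosen with earlier results of these data known. The empirical null centres the Wald statistic on its median and divides by its scale (1.21 at E14.5 and 0.950 at E18.5). Python 3.11.15, pandas 2.3.3, numpy 2.4.6 and SciPy 1.17.1 were used.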

Additional observations from a re-analysis of the deposited data

How the results depend on the processing

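The 1 cilium gene called at E14.5, Wdpcp, was not called with the Benjamini-Yekutieli adjustment (0 called, adjusted p = 0.402), with every gene with a p-value adjusted together (0 called, adjusted p = 0.0533) or with the empirical null (0 called, adjusted p = 0.347), and stayed called at an adjusted p under 0.1 and among genes averaging 100 normalized counts or more. Over all genes the E14.5 count went from 162 to 319 at an adjusted p under 0.1, 56 with Benjamini-Yekutieli and 32 with the empirical null; that of E18.5 went from 9 to 18, 4 and 19, and to 14 among genes with a mean of at least 100. No setting called a cilium gene at E18.5 or for the difference between stages. Ift122 at E18.5 passed at an adjusted p under 0.1 (0.0520), among genes with a mean of at least 100 (0.0453) and with the empirical null (0.0205); at E14.5 it was lost with Benjamini-Yekutieli (0.103), as were Mc4r (0.263) and Sass6 (0.347). Gpr161 at E18.5, at −0.00, changed sign with the empirical null (adjusted p = 0.999). The half-site share went from 53.2% to 70.2% with 4 spellings, an alternative chosen after seeing the data, because more spellings match. The medians of the cilium genes moved by less than the median SE of a single gene under each alternative tried. That SE (0.075 at E14.5 and 0.078 at E18.5) is larger in size than the medians themselves (−0.01 and −0.03). It is not the uncertainty of a median, so this cannot show whether the medians are stable. For the other changes named here the cause was not tested. No paired analysis was possible because the tables hold no values per library; for the same reason no replicate block, other normalization or leave-one-out fit was run.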
